A study of Mus musculus with 3 samples.

Results

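The 10 genes of MHC class I antigen presentation described here were taken by name: B2m, H2-K1, H2-D1, Tap1, Tap2, Tapbp, Psmb8, Psmb9, Psmb10 and Nlrc5. They were 10 of the 27998 genes in the files, and each symbol was found. Their levels were measured by single-cell RNA sequencing in 3 mouse kidneys, 1 library per mouse, 14 days after folic acid, a compound that injures the proximal tubule at high dose. There were 2 libraries from Aoah-/- mice (mouse 2 and mouse 3) and 1 from a wild-type littermate (WT mouse 3). Every mouse had received folic acid, so no uninjured kidney was compared. The labels give an age of 6 to 8 weeks. The Aoah-/- mice lack the gene in all cells and had been backcrossed to C57BL/6J. Aoah encodes acyloxyacyl hydrolase, an enzyme that removes fatty acyl chains from bacterial lipopolysaccharide. The question asked of these genes was where in the folic acid kidney class I presentation is transcribed, and whether its level differed between Aoah-/- and WT cells of the same class.

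MHC class I molecules show fragments of a cell's own proteins to CD8+ T cells. Proteasomes cut the proteins, the transporter made of Tap1 and Tap2 carries the peptides into the endoplasmic reticulum, tapasin (Tapbp) holds the empty heavy chain at the transporter, and the loaded heavy chain (H2-K1 or H2-D1) reaches the surface with β2-microglobulin (B2m). Psmb8, Psmb9 and Psmb10 are the inducible catalytic subunits that replace Psmb5, Psmb6 and Psmb7 in the immunoproteasome. Nlrc5 is the transactivator of class I genes. Proximal tubule epithelial cells (PTECs) carry little class I at rest, and interferon-γ is known to raise it in them.

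The genes lie in few places of the GRCm38 genome. Psmb9 (chr17:34181987-34187764, minus strand), Tap1 (chr17:34187553-34197225, plus), Psmb8 (chr17:34197721-34201454, plus) and Tap2 (chr17:34203527-34216321, plus) are neighbors, and the RefSeq start sites of Psmb9 and Tap1 are 226 bases apart on opposite strands. Tapbp (chr17:33915899-33929292, plus), H2-K1 (chr17:33996017-34000347, minus) and H2-D1 (chr17:35262730-35267499, plus) lie on the same chromosome. B2m (chr2:122147686-122153083, plus), Psmb10 (chr8:105935735-105938444, minus) and Nlrc5 (chr8:94434356-94527272, plus) do not. Heavy-chain genes are close copies of each other, so the split of reads among H2-K1, H2-D1 and their relatives is uncertain. The gene models of Psmb9 and Tap1 overlap, and whether reads were counted by strand is not given in the sources used here.

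The promoters of B2m and H2-K1 are printed because these genes are a light chain and a heavy chain of the same complex. Both were higher in Aoah-/- PTEC-like cells, while their matches to the 4 fixed letter patterns searched differ. Other forms of these elements were not searched for, so a missing match does not mean a missing element. The stretches are the bases just upstream of the annotated gene, read 5′ to 3′ on the gene's strand from RefSeq promoters (GRCm38.p6), at chr2:122147437-122147685 (plus strand) and chr17:34000348-34000597 (minus strand). Capitals mark matches to any of 4 motifs searched on both strands.
B2m: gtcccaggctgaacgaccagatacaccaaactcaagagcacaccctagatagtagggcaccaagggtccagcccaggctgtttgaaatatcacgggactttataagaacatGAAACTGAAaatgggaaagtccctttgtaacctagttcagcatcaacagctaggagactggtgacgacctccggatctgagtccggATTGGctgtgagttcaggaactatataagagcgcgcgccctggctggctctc
H2-K1: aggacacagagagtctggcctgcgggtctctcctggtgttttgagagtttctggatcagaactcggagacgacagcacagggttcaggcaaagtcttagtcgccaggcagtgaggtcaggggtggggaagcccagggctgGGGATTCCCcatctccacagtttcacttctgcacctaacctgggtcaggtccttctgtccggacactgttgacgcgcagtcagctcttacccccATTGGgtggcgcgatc
In B2m the capitals are an interferon-stimulated response element core, GAAANNGAA, at -139 to -131 from the start site, and a Y box, ATTGG, at -53 to -49. In H2-K1 they are a κB palindrome, GGGATTCCC, at -110 to -102 and a Y box at -16 to -12. A window of 250 bases before and 50 after the start was in the table for 8 of the 10 genes. The response element core was found in 1 of the 8 (B2m) and in 8.56% of the 32851 windows of all genes. The interferon-γ activated site TTCNNNGAA was found in 1 (Psmb8, -97 to -89) and in 8.30% of windows. The κB palindrome was found in 2 (H2-K1, and H2-D1 at -170 to -162) and in 0.353% of windows. The Y box was found in 6 (B2m, H2-K1, H2-D1, Tap1, Tapbp and Psmb9) and in 37.4% of windows. A match is a run of letters only.

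After filters, 59262 cells were kept, between 18202 and 21368 per library, with a median of 3357 to 3859 UMIs per cell (a UMI is the tag that marks a single captured RNA molecule) and library totals of 158551992 to 167222984 UMIs. Pairs of libraries shared 171 to 176 barcodes, at most 0.763% of a library. Of 39 clusters, 27 were named from marker genes as "-like" classes, holding 86.3% of kept cells, and 15 classes had at least 50 cells in every library. The files' lowest UMI total per barcode was 500, 1672 and 500 in Aoah-/- mouse 2, Aoah-/- mouse 3 and WT, so mouse 3 lacks the shallowest barcodes. All 16 PTEC markers were higher in the PTEC-like class than in any other. The class was named from these same markers, so this does not check the label. Aoah itself was measured at 6.75, 6.19 and 18.2 CPM (UMIs of a gene per 1000000 UMIs) over all kept cells of Aoah-/- mouse 2, Aoah-/- mouse 3 and WT. It was lower in both Aoah-/- libraries but not absent. Which exons are deleted is not given, and 3′ counts from outside the deleted stretch would not check the genotype.

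Levels are given below as CPM of the cells of a class, in the order Aoah-/- mouse 2, Aoah-/- mouse 3 and WT, and each gene gives 3′ counts that do not scale with its length. With 1 WT library no test between genotypes was possible. Where genes are counted by both Aoah-/- libraries lying above or below WT, the share of all genes doing so was not measured. Such counts therefore have no background. A genotype difference is the log2 of the mean of the 2 Aoah-/- libraries over WT, with the SD between the Aoah-/- libraries. A gene was called higher or lower when that ratio was at least 1.5-fold and both Aoah-/- libraries lay on the same side of WT by more than the gap between them, among genes at 10 CPM or more in WT or in the Aoah-/- mean.

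Among the named classes, lymphoid, myeloid and endothelial cells held the most class I transcripts and nephron epithelium the least. Unnamed clusters, some of them high in injury genes, are given in the closing section. Summed over the 10 genes, the level was 8964, 9130 and 9260 CPM in T lymphocyte-like cells and 8365, 9065 and 8375 CPM in endothelial-like cells. Macrophage-like (8790, 7792 and 7290), plasmacytoid dendritic-like (7707, 7179 and 7882) and natural killer-like cells (7435, 7687 and 7248) came next. These 5 classes formed the top of the order, each overlapping its neighbor over the 3 libraries. B lymphocyte-like (5011, 5169 and 4636 CPM) and granulocyte-like cells (5098, 4646 and 4950) lay below without overlap with natural killer-like cells, and overlapped each other. Fibroblast-like cells held 2595, 2459 and 4138 CPM and urothelial-like cells 2612, 2255 and 3329.

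The nephron classes followed with no overlap with urothelial-like cells. Principal-like cells of the collecting duct held 1313, 1459 and 1044 CPM and intercalated-like cells 1136, 1313 and 1016. Ascending limb-like cells held 794, 1055 and 570 CPM, and distal convoluted tubule-like cells 632, 961 and 502. PTEC-like cells held 836, 810 and 382 CPM. In WT, PTEC-like cells had the lowest summed level of the 15 classes, and in Aoah-/- mouse 2 they lay above both the ascending limb-like and the distal convoluted tubule-like class. Erythroid-like cells held 935, 1994 and 513 CPM.

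**Figure D1:**
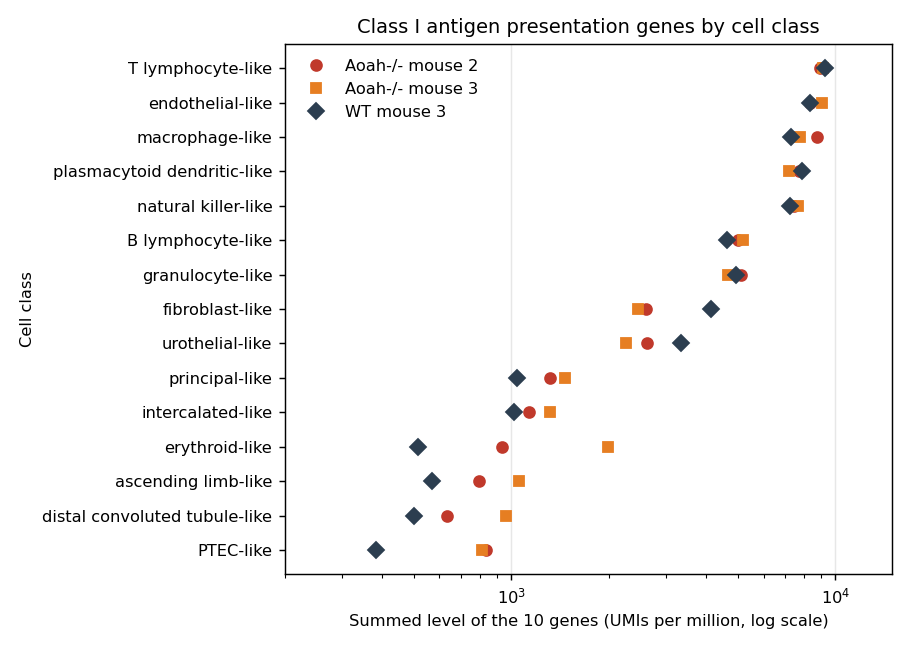
Summed level of the 10 genes (x axis, CPM, log scale) in 15 cell classes (y axis, ordered by the mean of the 3 libraries), with 1 point per library. T lymphocyte-like cells sit between 8964 and 9260, and PTEC-like cells at 836 and 810 in the Aoah-/- libraries and at 382 in WT.

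The T lymphocyte-like level was a mean of 14.3-fold above the PTEC-like level within a library, a log2 difference of 3.84 ± 0.66 (SD, n = 3). It was 3.42 and 3.50 in the Aoah-/- libraries and 4.60 in WT, so the distance was larger in WT. All 10 genes were at least 2-fold higher in T lymphocyte-like than in PTEC-like cells in each of the 3 libraries, as were 27.4% of all 8872 genes compared. All 10 also were in endothelial-like cells, against 34.2% of all 9484 genes.

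The genes did not share a single leading class. B2m was highest in endothelial-like cells (3146, 3475 and 2865 CPM), overlapping macrophage-like cells (3253, 3136 and 2696). H2-K1 was highest in T lymphocyte-like cells (2675, 2691 and 2883 CPM), above natural killer-like cells (2293, 2342 and 2318) in every library. H2-D1 was highest in endothelial-like cells (2234, 2424 and 2436 CPM), overlapping macrophage-like and T lymphocyte-like cells. B2m and H2-D1 thus had the same 3 leading classes, and H2-K1 did not.

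Among the transport genes, Tap2 (140, 156 and 149 CPM) and Tapbp (237, 261 and 235 CPM) had their highest mean in endothelial-like cells, with no overlap with the next class, although Tapbp in macrophage-like cells reached 264 CPM in Aoah-/- mouse 2. Tap1 was highest in T lymphocyte-like cells at 143, 135 and 111 CPM, overlapping endothelial-like cells at 112, 109 and 73.2. Tapbp spanned the fewest fold between its highest and lowest class, 8.58-fold, from endothelial-like to PTEC-like cells.

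Psmb8 and Psmb9 spanned the most. Psmb8 differed by 74.8-fold between plasmacytoid dendritic-like cells (618, 589 and 721 CPM) and PTEC-like cells (8.85, 10.7 and 6.24), and Psmb9 by 74.5-fold between the same classes. Psmb10 was highest in endothelial-like cells at 238, 221 and 261 CPM and spanned 31.7-fold. Nlrc5, which spanned 53.9-fold, was the scarcest gene, highest in T lymphocyte-like cells at 60.7, 40.4 and 31.9 CPM with no overlap with natural killer-like cells (22.9, 24.2 and 7.67). PTEC-like cells had the lowest mean of all 15 classes for 9 of the 10 genes. The exception was B2m, which was lowest in distal convoluted tubule-like cells at 166, 301 and 93.9 CPM.

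**Figure D2:**
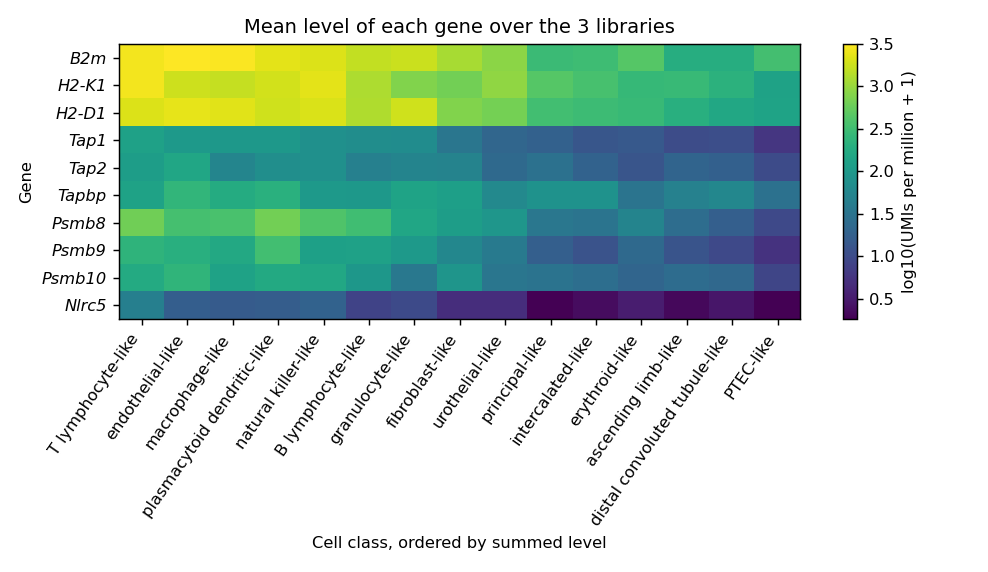
Mean level of each gene (rows) over the 3 libraries in 15 cell classes (columns, ordered by summed level), colored by log10 of CPM plus 1. B2m, H2-K1 and H2-D1 are bright in every immune and endothelial class, the Psmb genes are dark in the nephron classes, and Nlrc5 is dark outside T lymphocyte-like cells.

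Across the 15 classes (means of 3 libraries, log2 of CPM plus 10), H2-D1 followed the summed level most closely (Pearson r = 0.994) and Tapbp least (r = 0.859). Of 12292 other genes ranked, those most alike in pattern included Tgfb1 (r = 0.973), Tpm3 (0.965), Crlf2 (0.955) and Tpm3-rs7 (0.951). Tgfb1, a cytokine known for its role in fibrosis, ranged from 2.05 CPM in PTEC-like to 171 CPM in plasmacytoid dendritic-like cells. The 15 points come from the same 3 libraries, so r is a description.

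In PTEC-like cells the class I genes were higher in Aoah-/- than in WT. The summed level of 836 and 810 CPM against 382 was a 2.15-fold difference (log2 1.11, SD 0.03 between the Aoah-/- libraries). The exact Poisson 95% intervals, which cover counting error only, were 828 to 843, 802 to 818 and 378 to 387 CPM, and the intervals of the 3 libraries did not overlap. Both Aoah-/- libraries were above WT for each of the 10 genes, but the share of all genes with this pattern was not measured. Of the 10 genes, 5 reached 10 CPM and all 5 were called higher, against 2.52% of the 7275 genes tested. None was called lower, against 1.48%. The 5 are B2m, H2-K1, H2-D1, Tapbp and Tap2, and Tap2 reached 10 CPM only through the Aoah-/- libraries. The median log2 ratio of all tested genes was -0.05.

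B2m stood at 451, 416 and 162 CPM, a log2 ratio of 1.42 (SD 0.08). H2-K1 stood at 156, 161 and 83.3 CPM (log2 0.93, SD 0.03), and H2-D1 at 152, 160 and 95.3 CPM (log2 0.71, SD 0.05). The light chain thus had the larger ratio. In WT PTEC-like cells, B2m UMIs were fewer than those of both heavy chains together, and in Aoah-/- cells they were more.

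Tapbp stood at 35.7, 31.1 and 18.6 CPM (log2 0.84, SD 0.14) and Tap2 at 10.6, 10.2 and 5.95 CPM (log2 0.81). Tap1 stood at 6.42, 6.05 and 2.19 CPM, a log2 ratio of 1.51 that was under the 10 CPM minimum. Both chains of the peptide transporter were therefore above WT in both Aoah-/- libraries, at low levels.

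All 3 immunoproteasome genes lay under the minimum. Psmb8 was at 8.85, 10.7 and 6.24 CPM (log2 0.65), Psmb9 at 5.27, 5.68 and 2.36 (log2 1.21) and Psmb10 at 9.14, 8.13 and 5.40 (log2 0.68). Nlrc5 rested on 58, 53 and 24 UMIs in the whole class, or 1.06, 1.08 and 0.329 CPM (log2 1.70).

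**Figure D3:**
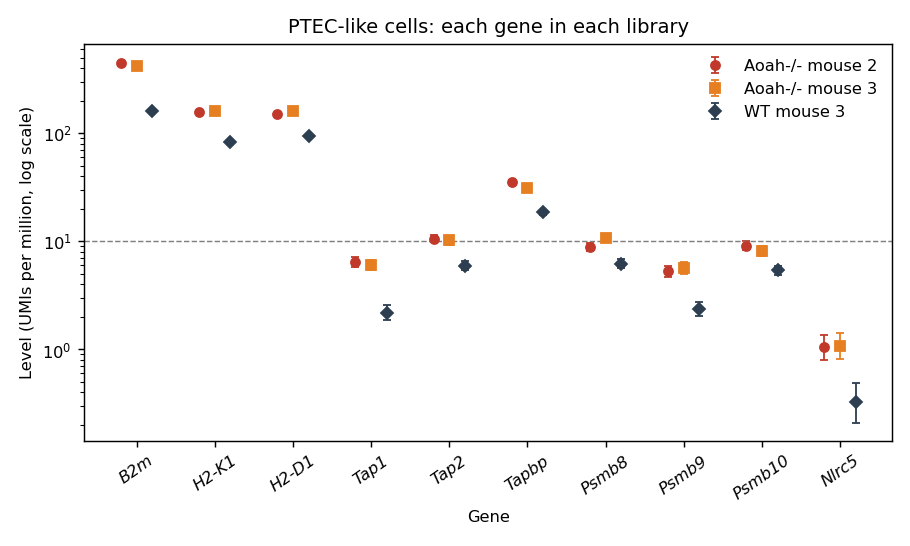
Level of each gene (x axis) in PTEC-like cells in CPM (y axis, log scale), with 1 point per library and exact Poisson 95% intervals as error bars. The dashed line marks the 10 CPM minimum, and both Aoah-/- points lie above the WT point for all 10 genes.

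Immune transcripts moved with the class I genes in PTEC-like cells. The 12 genes of an immune marker list summed to 153, 135 and 66.8 CPM. All 12 were above WT in both Aoah-/- libraries and none was at 0. Ptprc, the pan-leukocyte marker, was at 4.29, 7.23 and 1.92 CPM and Lyz2, a myeloid lysozyme, at 59.6, 32.5 and 19.9 CPM. Markers of 7 immune, endothelial and fibroblast-like classes in PTEC-like cells, each as a share of its level in its own class, imply 91.1, 82.2 and 35.8 CPM of the 10 genes, or 10.9%, 10.2% and 9.38% of what was measured. That is an Aoah-/- mean 50.8 CPM above WT, where 440.6 CPM was measured, and with it subtracted the log2 ratio was 1.09. The share of each class was the median over those of its markers that were used, so the estimate is rough. B2m, H2-K1 and H2-D1 made up 759, 737 and 341 CPM of the measured sum. The percentages therefore do not hold for the scarcer genes, for which no such estimate was made. With every PTEC-like cell that held an immune marker UMI left out, the log2 ratio was 1.05. The part of RNA from other cells in the result was not tested. Spp1, a transcript of injured tubule, also moved with the class I genes at 954, 864 and 318 CPM (log2 1.51). Of an injury list of 6 genes, 2 were tested, and Spp1 was the 1 called higher. Clu, the other gene tested, was at log2 0.34. The part of injury genes in the result was not tested.

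The genotype difference was present in each subcluster of PTEC-like cells large enough to compare. Of 9 subclusters, 7 had at least 50 cells in every library. The same 3 libraries supply all of them. In WT the summed level ran from 169 CPM in subcluster 3 (Csrp2 and Acaa1b) to 764 CPM in subcluster 0, led by Slc5a2 and Slc34a3, transporters of the early proximal tubule. Subcluster 0 held 1249, 1299 and 764 CPM and subcluster 3 held 257, 237 and 169. Both Aoah-/- libraries were above WT in all 7, with log2 ratios of 0.55 to 0.88, each smaller than the 1.11 of the class as a whole.

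The subclusters also took different shares of the class. Subcluster 0 held 8.06%, 11.2% and 2.98% of PTEC-like cells. Subcluster 5 (Spp2 and Slc6a19), at 974, 898 and 508 CPM, held 43.1%, 19.3% and 29.3%. With the subclusters weighted alike in every library, the class-level log2 ratio was 0.82 and 3 of the 10 genes were called higher in place of 5, with 4 tested and 1.80% of all genes called higher. At a 2-fold rule 1 gene, B2m, was called, against 0.66% of all genes.

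B2m, H2-K1, H2-D1 and Tapbp were above WT in both Aoah-/- libraries in 7 of 7 subclusters, with log2 ratios for B2m of 0.91 to 1.19. Tap1 and Tap2 were in 6, and Psmb9, Psmb10 and Nlrc5 in 5. Psmb8 was in 3 and lay below WT in both in 1. Subcluster 6, led by Tmsb4x and Cd52 with other immune genes, held 1180, 1203 and 710 CPM of the 10 genes at an immune list sum of 756, 703 and 729 CPM. It made up 1.75%, 12.7% and 1.33% of the class. Leaving it and a platelet-led subcluster out gave a B2m log2 ratio of 1.41.

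**Figure D4:**
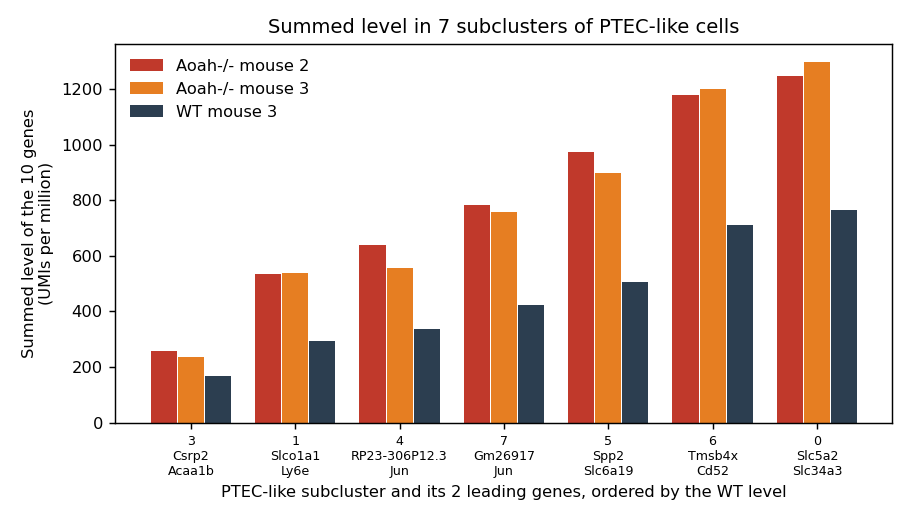
Summed level of the 10 genes (y axis, CPM, from 0) in 7 subclusters of PTEC-like cells (x axis, with 2 leading genes each, ordered by the WT level), with 1 bar per library. The bars of both Aoah-/- libraries exceed the WT bar in each subcluster, from 257 and 237 against 169 in subcluster 3 to 1249 and 1299 against 764 in subcluster 0.

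Per cell, the counts of the 10 genes were low. When PTEC-like cells were thinned to 5000 UMIs each (3200, 2787 and 4601 cells, leaving out 4876, 2085 and 4726 shallower ones), the median cell held 3, 3 and 1 UMIs of the 10 genes. At least 1 UMI was found in 90.9%, 89.7% and 73.1% of cells. At least 5 were found in 29.3%, 28.8% and 7.22%, and at least 10 in 6.19%, 7.32% and 1.20%. Thinned to 1000 UMIs, the median cell held 0 UMIs of the 10 genes in every library, and 31.4% (exact binomial 95% interval 30.3 to 32.6), 31.2% (29.9 to 32.5) and 14.4% (13.6 to 15.2) of PTEC-like cells had a B2m UMI. Without thinning the shares were 64.6%, 78.2% and 46.5% of all PTEC-like cells, whose median depths were 3072, 6275 and 4856 UMIs. In T lymphocyte-like cells the thinned shares were 92.0%, 92.6% and 90.4%. No class here is known to lack B2m, and erythroid-like cells, whose mature forms have no nucleus, served as the nearest background at 23.9%, 53.1% and 12.5%. That class also held immune marker sums of 533, 2651 and 308 CPM, and 19.0%, 19.9% and 14.1% of its UMIs were mitochondrial. It is therefore an imperfect background. The WT PTEC-like share lay within the interval of the WT erythroid-like share (8.71 to 17.2), and in Aoah-/- mouse 3 the PTEC-like share was under the erythroid-like one. Shares of cells are therefore not read as expression here.

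Inducible subunits were a small part of catalytic proteasome transcripts in PTEC-like cells and most of them in lymphocytes. Psmb8, Psmb9 and Psmb10 together were 4.50%, 4.73% and 2.32% of the UMIs of these genes plus Psmb5, Psmb6 and Psmb7 in PTEC-like cells. They were 75.2%, 76.2% and 76.2% in T lymphocyte-like, 73.1%, 74.2% and 71.7% in plasmacytoid dendritic-like, and 68.0%, 68.9% and 69.2% in endothelial-like cells. The other nephron classes lay between, from 8.76%, 12.6% and 7.15% in distal convoluted tubule-like to 16.5%, 20.5% and 13.0% in principal-like cells. Granulocyte-like cells differed most between libraries among immune classes, at 46.0%, 40.6% and 61.6%.

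The PTEC-like share combined inducible genes above WT with constitutive genes below it. Psmb5 was at 206, 214 and 257 CPM (log2 -0.29), Psmb6 at 165, 159 and 196 (log2 -0.27) and Psmb7 at 122, 120 and 137 (log2 -0.19), and none of the 3 was called. By pair, Psmb8 was 4.11%, 4.76% and 2.37% of itself plus Psmb5, Psmb9 was 3.09%, 3.44% and 1.19% of itself plus Psmb6, and Psmb10 was 6.99%, 6.34% and 3.78% of itself plus Psmb7. The part of RNA from other cells in these shares was not tested.

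**Figure D5:**
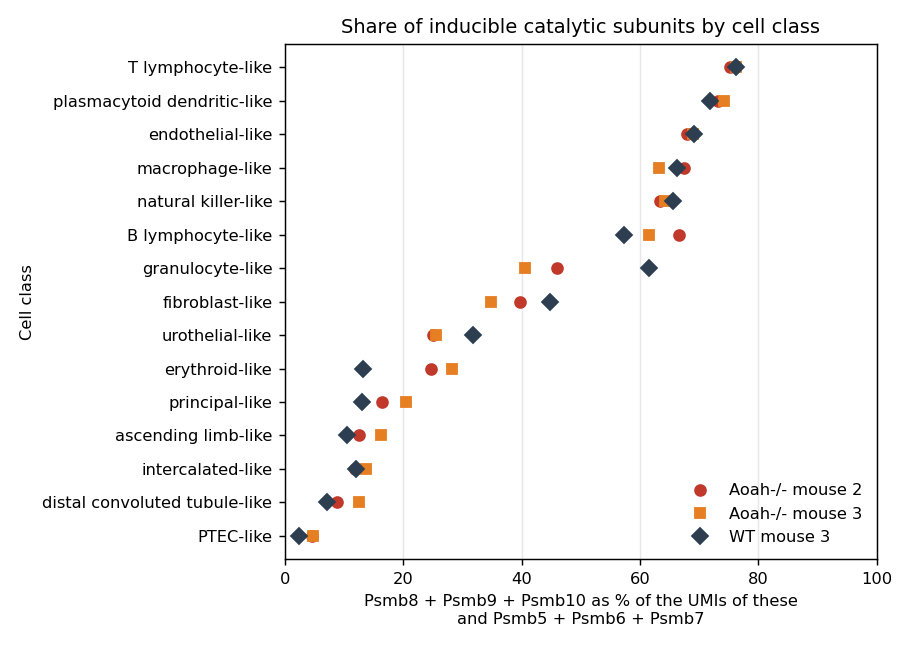
UMIs of Psmb8, Psmb9 and Psmb10 as a percentage of these plus Psmb5, Psmb6 and Psmb7 (x axis) in 15 cell classes (y axis), with 1 point per library. T lymphocyte-like cells sit at 75.2% to 76.2%, and PTEC-like cells at 4.50% and 4.73% in Aoah-/- and 2.32% in WT.

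The rest of the pathway was given by lists, whose call counts in PTEC-like cells are read beside the same 2.52% of all genes. None of the 11 other subunits of the 20S proteasome core was called (median log2 -0.19, from -0.30 for Psmb2 to -0.11 for Psmb3). None of 4 activator and assembly genes was called. Psme1, a subunit of the interferon-inducible activator, was at 51.8, 46.2 and 38.6 CPM, Psme2 at 40.6, 40.8 and 40.8, and Pomp, a proteasome assembly chaperone, had the lowest log2 ratio at -0.25. Endoplasmic reticulum chaperones that load class I gave 0 calls of 3 genes tested (5 listed), from 0.17 for Pdia3 to 0.41 for Canx. Other class I heavy chains gave 0 of 3 tested (15 in the files), from 0.05 for H2-T22 to 0.27 for H2-T23. Subunits of the promoter complex that Nlrc5 joins gave 0 of 5 tested (7 listed), from -0.34 for Rfxap to -0.10 for Nfyb. None of these 5 lists gave a call in PTEC-like cells.

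Interferon-related lists held further calls. Among the interferon signaling genes, Irf8 (10.4, 12.0 and 7.12 CPM, log2 0.65) and Irf9 (13.7, 10.9 and 7.71 CPM, log2 0.67) were called higher, and both reached the 10 CPM minimum through the Aoah-/- libraries. Irf1, which binds interferon-response elements, stood at 16.5, 10.6 and 5.62 CPM (log2 1.27) and was not called because the Aoah-/- libraries differed by more than the lower one differed from WT. Of the genes tested, Ifngr1, a chain of the interferon-γ receptor, had the lowest ratio at 0.05. Of 11 interferon-induced genes, 3 were tested and 2 were called higher, both immunity-related GTPases: Igtp (log2 0.93) and Irgm1 (log2 0.67). Cxcl10, a T cell chemokine, was at 0.36. Of 6 MHC class II genes, all tested, 3 were called higher (H2-Aa, H2-DMa and H2-DMb1). The ratios of all 6 ran from 0.70 to 0.86, so the uncalled genes also had an Aoah-/- mean above WT. Macrophages and B cells express class II. The immune marker list, with 4 calls of 6 tested, moved the same way in PTEC-like cells, and its part in the result was not tested.

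Ratios were nearer to 0 in the 3 classes with the highest levels. In T lymphocyte-like cells the summed log2 ratio was -0.03 (SD 0.02) and none of the 10 genes was called, where 3.09% of genes were called higher and 1.47% lower. Nlrc5 had the largest ratio there at 60.7, 40.4 and 31.9 CPM (log2 0.66), with the Aoah-/- libraries further apart than the lower was from WT. In macrophage-like cells the ratio was 0.19 (SD 0.12) and none was called, against 2.75% higher and 1.16% lower. Tapbp was at 264, 142 and 129 CPM. A macrophage-like cluster led by Saa3, Fn1, Slpi and Prg4 made up 40.3%, 1.21% and 3.71% of the class, and without it the ratio was 0.08. A cluster led by H2-Aa, H2-Eb1 and C1qa, the lowest of the class at 5222, 4502 and 5175 CPM, held 839, 177 and 1095 cells, or 9.31% of the class in Aoah-/- mouse 3 and 52.0% in WT, and its part in the ratio was not tested. In endothelial-like cells the ratio was 0.06 (SD 0.08) and 1 gene, Tap1, was called higher (112, 109 and 73.2 CPM, log2 0.60), against 5.63% higher and 2.73% lower. The difference between the PTEC-like ratio and these ratios was not tested, since WT had 1 library.

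Calls were fewer in the other nephron classes. In principal-like cells B2m (315, 372 and 184 CPM, log2 0.90) and Tap1 (20.9, 21.7 and 10.0 CPM, log2 1.09) were called higher of 9 genes tested, against 2.57% of genes. Tap1 passed the minimum there through the Aoah-/- libraries. In ascending limb-like cells Tap1 was called (10.4, 12.6 and 5.41 CPM), again through the Aoah-/- libraries, against 2.73%, and B2m stood at 180, 296 and 97.7 CPM, uncalled. In ascending limb-like, distal convoluted tubule-like, principal-like and intercalated-like cells the summed level was above WT in both Aoah-/- libraries. In that order the log2 ratios were 0.70 (SD 0.29), 0.67 (SD 0.43), 0.41 (SD 0.11) and 0.27 (SD 0.15). Their immune marker sums were above WT too, for example 451, 799 and 201 CPM in ascending limb-like and 244, 608 and 116 CPM in principal-like cells, and their part in the result was not tested.

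Fibroblast-like and urothelial-like cells lay on the opposite side. In fibroblast-like cells B2m (1011, 998 and 1544 CPM), H2-K1 (548, 504 and 869), H2-D1 (591, 583 and 1131) and Tapbp (102, 76.7 and 192) were called lower, 4 of 9 genes tested, where 13.2% of all genes were. The summed log2 ratio was -0.71 (SD 0.05). The fibroblast-like class held different cells in the libraries: a cluster led by Dcn, Mgp, Col3a1 and Pi16 was 37.1%, 54.7% and 94.0% of it, and a cluster led by Rgs5, Acta2, Tagln and Ren1 was 62.9%, 45.3% and 5.96%. Within the first, which had enough cells in Aoah-/- mouse 3 and WT, the summed level was 2422 against 4264 CPM. The immune marker sum of the whole fibroblast-like class was 1410, 2068 and 447 CPM, and its part in the result was not tested. With 30 principal components in the clustering the fibroblast-like ratio reversed to 0.08. In urothelial-like cells 9 of the 10 genes were below WT in both Aoah-/- libraries and Nlrc5 was above, and the summed level of 2612, 2255 and 3329 CPM gave a log2 ratio of -0.45 (SD 0.15). The immune marker sum there was 298, 900 and 173 CPM, and its part in the result was not tested.

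In the remaining classes single genes were called. Tap1 was higher in B lymphocyte-like cells (80.0, 76.7 and 49.5 CPM, 4.51% of genes called higher). Tapbp was higher in erythroid-like cells (36.1, 42.1 and 16.2 CPM, 11.6%), where all 10 genes were above WT in both Aoah-/- libraries. The summed log2 ratio of erythroid-like cells was 1.51 (SD 0.77), larger than the 1.11 of PTEC-like cells. The immune marker sum of that class was 533, 2651 and 308 CPM, and its part in the result was not tested. Nlrc5 was higher in natural killer-like cells on 13, 14 and 5 UMIs (7.08%) and lower in plasmacytoid dendritic-like cells on 5, 7 and 9 UMIs (11.5%), and in natural killer-like cells it passed the minimum through the Aoah-/- libraries alone. Psmb8 was lower in granulocyte-like cells (133, 126 and 195 CPM, 6.38%). By gene, Tapbp was above WT in both Aoah-/- libraries in 12 of 15 classes and B2m, Tap1 and Nlrc5 in 11. Psmb8 was above in 5 and below in 9, among them all 6 lymphoid and myeloid classes.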

How the data were processed

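Kidney cells from 3 mice were profiled with droplet 3′ kits (10x Chromium), 1 library per mouse. The deposited matrices hold raw UMI counts per gene and barcode, made by the authors against mm10. The submitters' processing notes name Cell Ranger 3.1.0, STAR and Seurat 4.2.0, and the matrix headers name Cell Ranger 6.1.2. Whether the authors removed barcodes or doublets before deposit is not given in the sources used here, beyond a lowest total of 500 or 1672 UMIs.

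Barcodes under 200 genes or over 50% mitochondrial counts were left out (16.3% to 21.1% of a library). They were clustered with scanpy 1.11.5 (Python 3.11.15) on 2000 variable genes, 50 principal components and 15 neighbors at resolution 1, without the 10 genes, other MHC genes and Aoah (45 genes in all). A cluster was named "-like" from at least 3 markers, and 12 of 39 clusters stayed unnamed. A doublet caller marked 544, 0 and 201 cells, so it had not worked in Aoah-/- mouse 3, and no cell was removed by it. For each class of each library, UMIs were added up over its cells and expressed as CPM, counts per 1000000 UMIs of that class and library. Groups came from the sample labels. With 1 WT library no test was run; the call rule stands in the report. The rule was run on simulated Poisson counts with a small fixed spread between libraries, so its error rate in these libraries is not known. Poisson and binomial intervals are at 95% and cover counting error only. Named genes are the 10 members, the fixed lists' counterpart subunits and extremes, the called interferon and class II genes, and the genes most alike in pattern; the called list genes and the 2 immune markers given were chosen after their values were seen. The members and lists were chosen with earlier results of these data known. Positions come from GENCODE M21 (GRCm38). A gene of these lists is not reported here. The closing section gives the alternatives.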

Additional observations from a re-analysis of the deposited data

Results flagged for a closer look

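Some genes were called higher in 1 or more classes and lower in another. Within each of these classes both Aoah-/- libraries lay on the same side of WT. In none of these cases could the difference between classes be tested, since there was 1 WT library. The values are log2 ratios of Aoah-/- over WT. B2m was at 1.42 in PTEC-like and 0.90 in principal-like cells and at -0.62 in fibroblast-like cells. H2-K1 was at 0.93 in PTEC-like and -0.72 in fibroblast-like cells, and H2-D1 at 0.71 and -0.95. Tapbp was at 0.84 in PTEC-like, 1.28 in erythroid-like and -1.11 in fibroblast-like cells. Nlrc5 was at 1.62 in natural killer-like and -1.17 in plasmacytoid dendritic-like cells, on 5 to 14 UMIs per library. The same 3 libraries supply every class.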

How the results depend on the processing

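In PTEC-like cells the summed log2 ratio of 1.11 stayed above 0 under every alternative run. It was 1.06 with 30 principal components, 1.05 without cells that held an immune marker UMI, 1.20 with each library clustered alone, 1.16 without mitochondrial UMIs in the denominator, 1.16 without the top 10% of doublet scores, and 0.82 with subclusters weighted alike, an alternative chosen after seeing the data. Leaving out an Aoah-/- library gave 1.08 to 1.13. The count of 5 genes called became 1 at a 2-fold rule (0.66% of all genes called) and 10 with no minimum level (9.67%). With subclusters weighted alike the count was 3 (1.80%). A single Aoah-/- library leaves no gap for the call rule to use, so no count is given for that case. The T lymphocyte-like ratio of -0.03 was -0.06 at 20% mitochondrial UMIs, 0.11 with libraries clustered alone, -0.09 with median-of-ratios scaling and -0.07 without the top doublet scores, and -0.05 to -0.02 without an Aoah-/- library. The endothelial-like ratio of 0.06 was -0.07 with 30 principal components, 0.25 without immune-marker cells and 0.34 with libraries clustered alone, and 0.00 to 0.11 without an Aoah-/- library. The macrophage-like ratio of 0.19 was 0.05 with median-of-ratios scaling, and 0.10 to 0.27 without an Aoah-/- library. The T lymphocyte-like over PTEC-like log2 difference ranged from 3.46 to 4.05. The fibroblast-like ratio of -0.71 reversed to 0.08 with 30 principal components. The cause of these changes was not tested. No gene of the 10 reversed in PTEC-like cells over 15 alternatives each. The smallest ratio was 0.25, for Psmb8 with subclusters weighted alike. The share of inducible subunits in PTEC-like cells was 2.30 percentage points higher in the Aoah-/- mean than in WT. Over 13 alternatives that difference ran from 1.68 to 3.29, and it was 1.83 without immune-marker cells. No paired analysis was possible because the genotypes share a single replicate number. Genes under 10 CPM rest on fewer UMIs than other genes of the same class, and on few in small classes. Leaving out the WT library leaves no genotype comparison.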

Other observations

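Clusters that no marker list named also carried the 10 genes. A cluster was led by Tagln, a fibroblast marker here, with Cp, Ankrd1, C3, Sox9, Ccl2, Ubd and Vcam1. It held 5331, 4909 and 3809 CPM of the 10 genes in Aoah-/- mouse 2, Aoah-/- mouse 3 and WT. PTEC-like cells held 836, 810 and 382 CPM. The injury list summed to 20127, 14155 and 12691 CPM in this cluster and to 979, 893 and 334 CPM in PTEC-like cells. Which cell type the cluster holds was not tested. A cluster led by Lcn2, Clu and Wfdc2, with Umod among its leading genes, held 1684, 2238 and 1891 CPM of the 10 genes. Its injury list sum was larger than that of the Tagln cluster, at 25922, 24906 and 29220 CPM. A cluster led by Dcn, Igfbp6 and C3 with Upk3b came almost wholly from WT (1, 0 and 150 cells), where it held 8631 CPM.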
